A study of Homo sapiens with 6 samples.

Results

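The calcineurin, RCAN and NFAT genes are 10 genes of one signalling module, taken here as the rows of the count table whose symbol is RCAN1, RCAN2, RCAN3, PPP3CA, PPP3CB, PPP3CC, NFATC1, NFATC2, NFATC3 or NFATC4, 10 of 34811 genes in the table. The rows were matched by symbol, but the group as a whole was chosen from measured values, the difference between OV3/SCR and OV3/COX1KD cells in these same 6 libraries. The members' values in that comparison are therefore a description, and no p-value is given for them. OVCAR-3 is an established human cell line of high-grade serous ovarian carcinoma. Both conditions were stable, drug-selected OVCAR-3 derivatives on a pRS HuSH-29 shRNA plasmid, OV3/SCR carrying a scrambled shRNA (COX-1 wild-type, 3 libraries) and OV3/COX1KD an shRNA against COX-1 (COX-1 knockdown, 3 libraries). Each condition was 1 clone, and its libraries were separate cultures of that clone, so the knockdown and the clone cannot be told apart.

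Calcineurin is a phosphatase switched on by calcium and calmodulin. A catalytic A subunit, encoded by PPP3CA, PPP3CB or PPP3CC, pairs with a calcium-binding regulatory B subunit and removes phosphates from the NFAT transcription factors NFATC1 to NFATC4, which then enter the nucleus. The RCAN proteins bind calcineurin and restrain it, and a short form of RCAN1 is itself made from an internal promoter that NFAT factors switch on, so that RCAN1 is widely read as a feedback gene of the pathway. Prostaglandin receptors that raise calcium feed into this pathway, and calcineurin and NFAT have been studied in carcinoma cells for roles in migration and in the induction of inflammatory genes.

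The promoters of the short RCAN1 transcripts and of the canonical RCAN2 transcript are shown first, because the results turn on these genes. Of the 10 genes, 7 had windows in the RefSeq promoter table (build GRCh38.p14), which run from 250 bases before a transcription start to 50 after it. PPP3CA, PPP3CB and PPP3CC had none. The sequences below are the 250 bases before the start, 5′ to 3′ on the gene's own strand, and the capitals mark the core letters bound by NFAT factors, GGAAA, read on either strand (TTTCC where the match is on the opposite strand).

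RCAN1, start of the short transcripts, chr21:34526823-34527072, minus strand: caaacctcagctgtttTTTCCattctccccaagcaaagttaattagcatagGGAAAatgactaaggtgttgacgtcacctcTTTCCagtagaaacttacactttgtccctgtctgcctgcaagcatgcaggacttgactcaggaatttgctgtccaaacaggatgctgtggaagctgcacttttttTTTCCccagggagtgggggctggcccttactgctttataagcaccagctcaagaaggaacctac

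RCAN2, start of the canonical transcript, chr6:46491450-46491699, minus strand: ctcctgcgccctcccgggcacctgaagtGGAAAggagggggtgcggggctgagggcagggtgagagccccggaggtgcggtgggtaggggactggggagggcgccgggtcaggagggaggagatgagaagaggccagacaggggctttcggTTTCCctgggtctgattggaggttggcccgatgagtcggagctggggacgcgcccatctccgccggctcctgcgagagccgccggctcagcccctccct

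An exact match placed the start of the RCAN1 window at position 35899120 of chromosome 21 in GRCh37, inside the gene and far from its outermost start. The window held 5 GGAAA matches over its 300 bases, 4 of them in the letters printed, and 0.74% of all 35116 windows of this length held as many. It also held 1 match to the cyclic AMP response element (TGACGTCA), present in 1.85% of windows, and 1 to the AP-1 letters TGANTCA, present in 7.71%. None of these matches overlaps another. The RCAN2 window held 2 GGAAA matches, and 27.5% of windows held as many, while at least 1 was present in 61.2% of windows. The windows at the other RCAN2 starts held none. At the outer start of NFATC2, whose log2 fold change was 0.1, the window held 3 GGAAA matches, and 9.94% of windows held as many. The window at the other NFATC2 start held none. The 3 RCAN1 windows at the outer starts of the gene held none. A match describes the letters and is not a shown binding site, and reads were counted per gene, so the short and long RCAN1 transcripts were not separated here.

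The libraries held between 25291505 and 27391538 counted reads, at which 3 counts correspond to 0.113 to 0.12 CPM (counts scaled to library size with edgeR's TMM factors). PTGS1, the gene for COX-1, had 713, 658 and 641 counts in OV3/SCR and 456, 486 and 501 in OV3/COX1KD, so 73.3% of its control level remained (log2 fold change -0.45, edgeR FDR = 1.34e-06). All 7 epithelial and serous markers examined, PAX8, WT1, MUC16, EPCAM, KRT7, KRT8 and KRT18, were at or above 95.5 CPM in every library. Their summed level was 4490 to 4520 CPM in OV3/SCR and 5700 to 5870 CPM in OV3/COX1KD. KRT8, at 1490 to 2400 CPM over all libraries, was the largest part of this sum. PAX8 ranged from 423 to 778 CPM, and the sum does not give the direction of each marker. The 3 leukocyte markers examined (PTPRC, CD3E and CD14) summed to 0.713 to 0.959 CPM in OV3/SCR and 0.263 to 0.678 CPM in OV3/COX1KD. The 2 endothelial markers (VWF and CDH5) summed to 0.998 to 1.59 CPM and 1.36 to 1.95 CPM, with CDH5 at 3 counts or fewer in every library. The 4 fibroblast markers summed to 10.3 to 11.1 CPM and 6.19 to 7.18 CPM, mostly from COL1A1, and COL3A1 had at most 4 counts in any library. The part of these marker differences in the results below was not tested.

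One library, OV3/COX1KD replicate 2, stood apart from the others of its condition. The chi-square of its counts per degree of freedom was 4.92 against replicate 1 and 6.4 against replicate 3, while replicates 1 and 3 gave 1.91 and the OV3/SCR pairs 1.82 to 3.16. Among the 10 genes it was the lowest OV3/COX1KD library for RCAN3, PPP3CA, PPP3CB, NFATC1, NFATC2 and NFATC3 and the highest for RCAN2 and NFATC4. Without it the log2 fold changes of the RCAN genes were -0.85 for RCAN1, -3.66 for RCAN2 and 0.43 for RCAN3. Those of the catalytic subunits were 0.24 for PPP3CA, 0.45 for PPP3CB and -0.98 for PPP3CC. Those of the NFAT genes were 0.37 for NFATC1, 0.2 for NFATC2, 0.56 for NFATC3 and 0.05 for NFATC4. Without this library 8 of the 10 genes were called, NFATC1 being the gene added, and 8989 of all tested genes in place of 8293.

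The conditions were compared with the quasi-likelihood test of edgeR over the 17309 genes that passed a filter on low counts, and a gene was called at a Benjamini-Hochberg FDR under 0.01. All 10 genes passed the filter. Of them, 7 were called, 4 higher and 3 lower in OV3/COX1KD. In the same fit 47.9% of all tested genes were called, 25.8% as higher and 22.1% as lower. The ranges of the conditions did not overlap for 7 of the 10 genes, against 63.2% of all tested genes. The median log2 fold change was 0.141 for the 10 genes and -0.009 for all tested genes, and the median of its absolute size was 0.403 and 0.277. The call of PPP3CA was lost in 9 of 12 alternative settings, and the other 6 calls held in all 12. Over all genes, 4473 were called higher and 3820 lower, and scaling by total counts alone turned this to 3466 higher and 4978 lower.

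**Figure D1:**
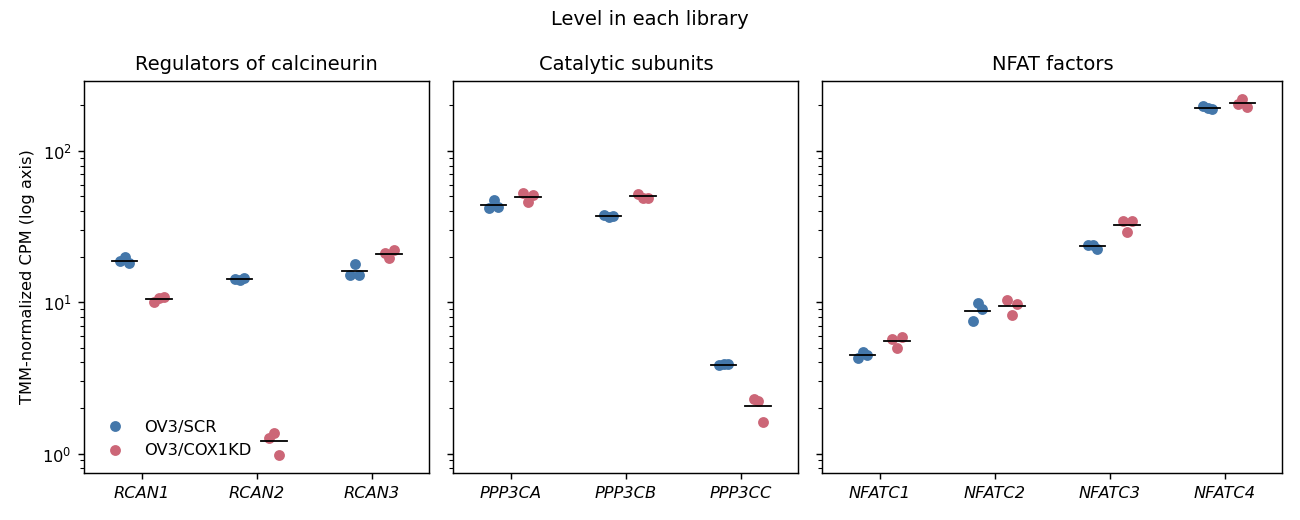
Level of each gene in each library in TMM-normalized CPM on a log axis, blue for OV3/SCR, red for OV3/COX1KD, 3 libraries each, with a black line at the mean. RCAN2 lies near 14 CPM in OV3/SCR and near 1 CPM in OV3/COX1KD, RCAN1 and PPP3CC are also lower in OV3/COX1KD, and the NFAT genes are level or slightly higher.

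The RCAN genes moved apart. RCAN2 (ENSG00000172348, chromosome 6 of GRCh37 from 46188473 to 46459709) encodes a calcineurin inhibitor best known from brain and heart. It had 379, 368 and 373 counts in OV3/SCR but only 32, 34 and 26 in OV3/COX1KD. Every OV3/COX1KD library was far below every OV3/SCR library, and the spread within a condition was small beside the gap. The TMM-scaled level averaged 14.3 ± 0.157 CPM against 1.2 ± 0.2 CPM (SD, n = 3 each), 11.9-fold lower, with a log2 fold change of -3.57 (standard error 0.12). Of the 17309 tested genes, 16 had a fall at least this large, RCAN2 included, which is 0.0924%. A lower level in bulk RNA can come from fewer cells that express a gene or from less RNA in each cell, and these cannot be told apart here.

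RCAN1 (ENSG00000159200, chromosome 21 from 35885440 to 35987412), the feedback inhibitor whose internal promoter is printed above, had 497, 517 and 471 counts in OV3/SCR and 253, 267 and 289 in OV3/COX1KD. The conditions did not overlap, and all OV3/COX1KD libraries stood close together. The level was 18.9 ± 0.84 CPM in OV3/SCR against 10.5 ± 0.415 in OV3/COX1KD (SD, n = 3 each), so 55.6% of the control level remained, a log2 fold change of -0.84 (standard error 0.068). A fall at least this large was seen in 6.47% of tested genes. A same-strand gene of the annotation, ENSG00000288711, covers 13.2% of the exon length of RCAN1 and was not analysed here.

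RCAN3 (ENSG00000117602, chromosome 1 from 24828841 to 24867530), the remaining inhibitor of the family, went the other way. It had 403, 465 and 394 counts in OV3/SCR and 532, 491 and 588 in OV3/COX1KD. Each OV3/COX1KD library was above each OV3/SCR library, although the nearest pair, 17.8 and 19.6 CPM, lay close together. The mean levels were 16.1 ± 1.54 and 20.9 ± 1.25 CPM (SD, n = 3 each), a log2 fold change of 0.38 (standard error 0.071).

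The make-up of the RCAN transcripts changed with these differences. Per kilobase of merged exon, RCAN2 made up 43.1% ± 1.83 (SD, n = 3) of the summed RCAN level in OV3/SCR and 6.68% ± 1.28 in OV3/COX1KD. RCAN3 made up 25.8% ± 1.55 and 61.6% ± 2.03, and RCAN1 had nearly the same share in both, 31.1% ± 0.457 and 31.7% ± 1.29. The summed level of the 3 genes was 8.72 ± 0.302 CPM per kb in OV3/SCR and 4.76 ± 0.138 in OV3/COX1KD. These shares depend on the length used: with the length of the canonical transcript, RCAN1 rather than RCAN2 was the leading gene in OV3/SCR, with 53.7% ± 0.556, and RCAN1 rather than RCAN3 in OV3/COX1KD, with 55.3% ± 1.46. By either length the share of RCAN2 dropped and that of RCAN3 grew.

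**Figure D2:**
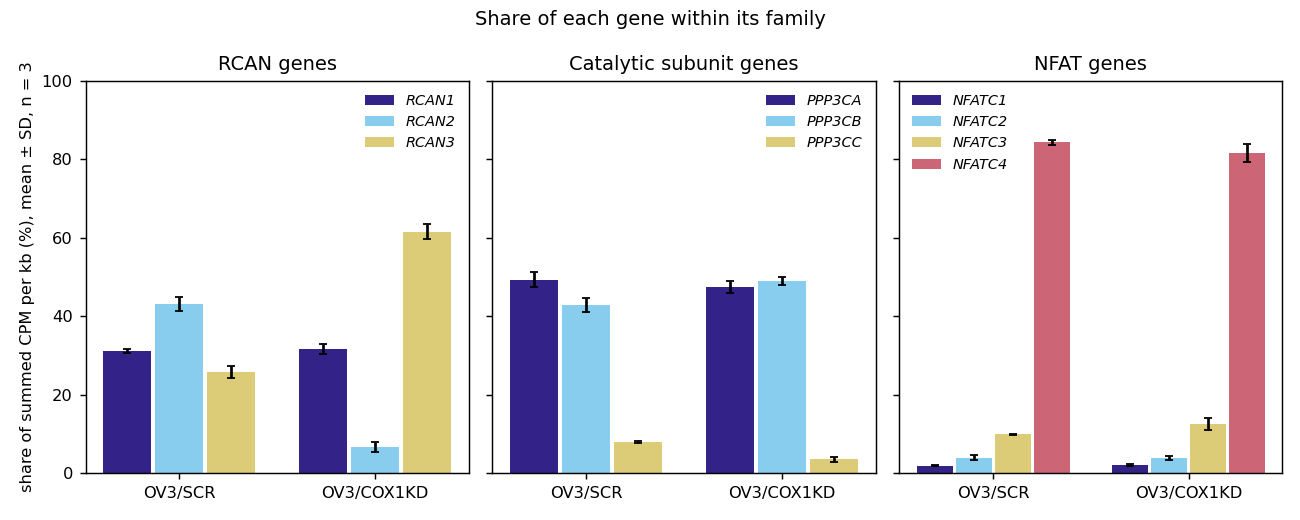
Share of each gene in the summed level of its family, from TMM-normalized CPM per kb of merged exon, as bars of the mean with SD over 3 libraries for OV3/SCR and OV3/COX1KD. The RCAN2 share drops from 43.1% to 6.68% and the RCAN3 share grows from 25.8% to 61.6%, while NFATC4 holds over 80% of the NFAT level in both conditions.

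Among the catalytic subunits, PPP3CC differed from the other two. PPP3CC (ENSG00000120910, chromosome 8 from 22298332 to 22398655), the A gamma subunit known for its part in testis and sperm, had 102, 101 and 101 counts in OV3/SCR and 58, 56 and 43 in OV3/COX1KD. All OV3/COX1KD libraries were lower. The level was 3.87 ± 0.0407 CPM in OV3/SCR against 2.05 ± 0.38 in OV3/COX1KD (SD, n = 3 each), 53.0% of the control, a log2 fold change of -0.92 (standard error 0.15). A fall at least this large was seen in 5.41% of tested genes.

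PPP3CB (ENSG00000107758, chromosome 10 from 75196191 to 75255782), the A beta subunit, had 1009, 956 and 962 counts in OV3/SCR and 1305, 1226 and 1310 in OV3/COX1KD. The conditions were well apart, at 37.3 ± 0.583 and 50 ± 1.62 CPM (SD, n = 3 each), a log2 fold change of 0.42 (standard error 0.044). PPP3CA (ENSG00000138814, chromosome 4 from 101944566 to 102269435), the widely expressed A alpha subunit, had 1114, 1234 and 1107 counts in OV3/SCR and 1320, 1150 and 1355 in OV3/COX1KD. Its ranges overlapped, since OV3/SCR replicate 2 at 47.4 CPM was above OV3/COX1KD replicate 2 at 45.9 CPM. The mean levels were 44 ± 2.96 and 49.7 ± 3.42 CPM (SD, n = 3 each), a log2 fold change of 0.18 (standard error 0.054).

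PPP3CA and PPP3CB together carried most catalytic subunit RNA in both conditions, and PPP3CC had 7.81% ± 0.207 (SD, n = 3) of the summed level per kb in OV3/SCR and 3.53% ± 0.652 in OV3/COX1KD. The summed level of the 3 genes was 17.1 ± 0.468 CPM per kb in OV3/SCR and 20.1 ± 0.932 in OV3/COX1KD. The RCAN sum was thus lower and the catalytic sum higher in OV3/COX1KD, each with no overlap between the conditions (RCAN 8.54 to 9.07 against 4.63 to 4.91 CPM per kb, catalytic 16.8 to 17.6 against 19.2 to 21.0).

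**Figure D3:**
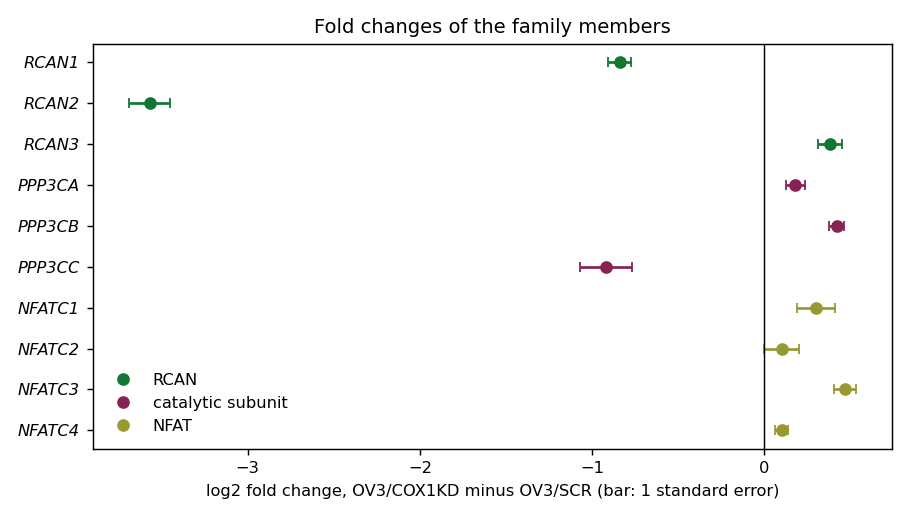
Log2 fold change of OV3/COX1KD over OV3/SCR for the 10 genes from the edgeR fit, with bars of 1 standard error. RCAN2 at -3.57 stands far from the rest, RCAN1 and PPP3CC lie at -0.84 and -0.92, and the other genes lie between 0.1 and 0.47.

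None of the NFAT genes, the targets of the phosphatase, was called lower. NFATC3 (ENSG00000072736, chromosome 16 from 68118654 to 68263162) had 640, 624 and 582 counts in OV3/SCR and 866, 728 and 915 in OV3/COX1KD. All OV3/COX1KD libraries were higher, and OV3/COX1KD replicate 2 was the lowest of them. The level was 23.5 ± 0.846 CPM in OV3/SCR against 32.6 ± 3.07 in OV3/COX1KD (SD, n = 3 each), a log2 fold change of 0.47 (standard error 0.063). ESRP2, an epithelial splicing factor gene on the opposite strand, covers 2.58% of the exon length of NFATC3 and had 107 CPM in OV3/SCR and 109 CPM in OV3/COX1KD. A same-strand gene, ENSG00000263276, covers 15.7% and had 1.44 and 1.03 CPM. The largest overlap, 31.8%, is with ENSG00000262160 on the opposite strand, which was not analysed here.

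NFATC4 (ENSG00000100968, chromosome 14 from 24834879 to 24848810) was counted 5247, 5029 and 4917 times in OV3/SCR and 5115, 5531 and 5224 times in OV3/COX1KD. The ranges overlapped, at 193 ± 3.33 and 207 ± 12.7 CPM (SD, n = 3 each), and the log2 fold change of 0.1 (standard error 0.038) was not called. Per kb of merged exon NFATC4 made up 84.4% ± 0.629 of the summed NFAT level in OV3/SCR and 81.7% ± 2.28 in OV3/COX1KD, so it was the main NFAT transcript of these cells.

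The other two NFAT genes were scarce and were not called. NFATC1 (ENSG00000131196, chromosome 18 from 77155856 to 77289325), a master factor of osteoclast formation, had 115, 123 and 116 counts in OV3/SCR and 144, 125 and 157 in OV3/COX1KD. Its ranges did not overlap, but OV3/COX1KD replicate 2, at 4.99 CPM, was near the highest OV3/SCR library at 4.72 CPM, and the log2 fold change was 0.3 (standard error 0.11). NFATC2 (ENSG00000101096, chromosome 20 from 50003494 to 50179370), known for cytokine induction in T cells, had 200, 257 and 233 counts in OV3/SCR and 259, 207 and 260 in OV3/COX1KD. Its conditions overlapped throughout, with a log2 fold change of 0.1 (standard error 0.1).

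The order of levels between genes was set per kb of merged exon. In OV3/SCR it ran NFATC4 (22.9 CPM per kb), PPP3CA (8.44), PPP3CB (7.32), RCAN2 (3.76), RCAN1 (2.71), NFATC3 (2.67), RCAN3 (2.25), PPP3CC (1.33), NFATC2 (1.06) and NFATC1 (0.497). Of the neighbours in this order, the ranges of the 3 libraries overlapped for RCAN1 and NFATC3 alone. In OV3/COX1KD the order ran NFATC4 (24.5 CPM per kb), PPP3CB (9.82), PPP3CA (9.54), NFATC3 (3.7), RCAN3 (2.93), RCAN1 (1.51), NFATC2 (1.14), PPP3CC (0.708), NFATC1 (0.61) and RCAN2 (0.317). Here PPP3CB overlapped with PPP3CA, and PPP3CC with NFATC1. RCAN2 thus went from the place after the main catalytic subunits to the last place. With the length of the canonical transcript, PPP3CB came before PPP3CA and RCAN1 before RCAN2 in OV3/SCR, and RCAN1 before RCAN3 and NFATC1 before PPP3CC in OV3/COX1KD.

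The genes whose pattern was most like RCAN1 were found by the smallest Euclidean distance over the 6 libraries, in log2 CPM centred on the OV3/SCR mean. They were PRSS23 (distance 0.0742, log2 fold change -0.87), IER3 (0.0854, -0.83) and RAB9A (0.0934, -0.87). With conditions this far apart, such likeness reflects mainly a fall of the same size.

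The rest of the pathway was described with a list of 58 genes, none of them among the 10, of which 52 were in the table and 40 passed the filter. Of these 40, 10 were called higher, 11 lower and 19 were not called, so 52.5% were called against 47.9% of all tested genes, and the median log2 fold change was -0.02. The FDR values below are edgeR's, adjusted over all tested genes.

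Calcineurin B, the regulatory subunit, is encoded by PPP3R1. It had 54.2 ± 0.332 CPM in OV3/SCR against 56.9 ± 1.2 in OV3/COX1KD (SD, n = 3 each), and the difference (log2 0.07, standard error 0.039, edgeR FDR = 0.131) was not called and took the opposite sign, -0.01, with total count scaling. The germ-cell form PPP3R2 was not analysed here. The calmodulin genes CALM2 and CALM3 encode the same protein and differed in direction, and near-identical copies elsewhere in the genome make their counts, and those of PPIA below, less certain. CALM3 rose from 123 ± 1.59 to 178 ± 1.6 CPM (SD, n = 3 each) (log2 fold change 0.53, standard error 0.031, edgeR FDR = 1.32e-11). CALM2 fell from 549 ± 5.92 to 484 ± 15.2 CPM (log2 fold change -0.18, edgeR FDR = 3.22e-05).

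Calcium release and store-operated entry feed the phosphatase. All 10 tested genes of this role were called, 6 higher and 4 lower. Of all tested genes, 47.9% were called, 25.8% as higher and 22.1% as lower, and the list was written with earlier results known. The inositol trisphosphate receptor gene ITPR2 had 2137, 2068 and 2082 counts in OV3/SCR and 4933, 4254 and 5218 in OV3/COX1KD. It was 80.0 ± 0.603 CPM in OV3/SCR against 187 ± 15.1 in OV3/COX1KD (SD, n = 3 each) (log2 fold change 1.23, standard error 0.046, edgeR FDR = 2.02e-14). STIM1, the calcium sensor of the endoplasmic reticulum, rose from 35.9 ± 1.17 to 58.7 ± 2.44 CPM (log2 fold change 0.71, standard error 0.045, edgeR FDR = 6.8e-11). ORAI3, one of the plasma membrane channel genes that STIM proteins open, had 80, 61 and 84 counts in OV3/SCR and 114, 114 and 121 in OV3/COX1KD (log2 fold change 0.66, edgeR FDR = 3.39e-04). PLCG2, a phospholipase that makes inositol trisphosphate, was scarce, with 18, 23 and 28 counts in OV3/SCR and 45, 48 and 56 in OV3/COX1KD (log2 fold change 1.14, edgeR FDR = 1.63e-04). ORAI1 and ORAI2 were the other two called higher. The 4 called lower were PLCG1, ITPR1, ITPR3 and STIM2. PLCG1, more abundant than PLCG2 (0.88 CPM in OV3/SCR), fell from 79.1 ± 3.82 to 55.2 ± 1.62 CPM (log2 fold change -0.52, edgeR FDR = 2.4e-09). ITPR1, ITPR3 and STIM2 had log2 fold changes of -0.41, -0.2 and -0.17 (edgeR FDR = 0.0017, 0.00595 and 0.00512). Relatives within the receptor, phospholipase and STIM families thus moved in opposite directions, though the falls of ITPR3 and STIM2 were small and near the threshold.

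Of the other brakes and anchors of calcineurin, with the immunophilins that its drug inhibitors bind, 7 of 10 genes were tested. CHP1, which encodes a calcineurin B homologue, and PPIA, which encodes cyclophilin A, were called higher, with log2 fold changes of 0.22 and 0.34. The other 5 were not called, so 28.6% were called against 47.9% of all tested genes. Of 8 tested genes for kinases that return phosphates to NFAT proteins, CSNK1D alone (12.5%) was called. It was lower, with a log2 fold change of -0.15. The genes for GSK3, DYRK and the other casein kinase 1 isoforms were not called. NFAT5, the tonicity-responsive relative that calcineurin does not control, had 25.9 ± 1.56 CPM in OV3/SCR against 23 ± 1.32 in OV3/COX1KD (SD, n = 3 each), and the difference (log2 -0.17, standard error 0.06, edgeR FDR = 0.0201) was not called. It was called lower with total count scaling (FDR = 0.00131) and without OV3/SCR replicate 2 (FDR = 0.00933), while the FDR was 0.0116 to 0.104 in the other 10 alternatives.

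Other proteins that calcineurin dephosphorylates were represented by 8 tested genes. Of these, 3 (37.5%) were called, all lower, against 47.9% of all tested genes. TFEB, a lysosomal gene regulator, had 127, 93 and 123 counts in OV3/SCR and 93, 58 and 67 in OV3/COX1KD. The ranges of the conditions overlapped, and the log2 fold change was -0.62 (standard error 0.17, edgeR FDR = 0.00363). This call was lost without OV3/SCR replicate 1 (FDR = 0.0256), without OV3/SCR replicate 3 (FDR = 0.0274) and without OV3/COX1KD replicate 3 (FDR = 0.0229). The CREB coactivator genes CRTC1 and CRTC2 were the other two, at log2 fold changes of -0.26 and -0.31.

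Genes reported elsewhere as NFAT targets were mostly lymphoid cytokine and ligand genes, and 3 of the 14 listed were tested. Of the rest, 7 were in the table but below the filter, among them IL4, TNF and PTGS2, at no more than 3 counts in any library. EGR2, also below the filter, had 3, 8 and 1 counts in OV3/SCR and 8, 20 and 13 in OV3/COX1KD. All 3 tested genes were called, in both directions, against 47.9% of all tested genes. IL8, a chemokine gene, had 207, 153 and 141 counts in OV3/SCR and 9, 5 and 11 in OV3/COX1KD, with no overlap. The level was 6.36 ± 1.23 CPM in OV3/SCR against 0.323 ± 0.111 in OV3/COX1KD (SD, n = 3 each) (log2 fold change -4.27, standard error 0.24, edgeR FDR = 8.18e-12). NR4A1, an immediate-early nuclear receptor gene, had 135, 109 and 130 counts in OV3/SCR and 73, 69 and 65 in OV3/COX1KD (log2 fold change -0.82, edgeR FDR = 3.26e-05). EGR3, a zinc finger factor gene, went up instead, with 71, 71 and 72 counts in OV3/SCR and 150, 124 and 157 in OV3/COX1KD (log2 fold change 1.04, standard error 0.13, edgeR FDR = 7.9e-07). The tested genes of this role therefore had no common direction.

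**Figure D4:**
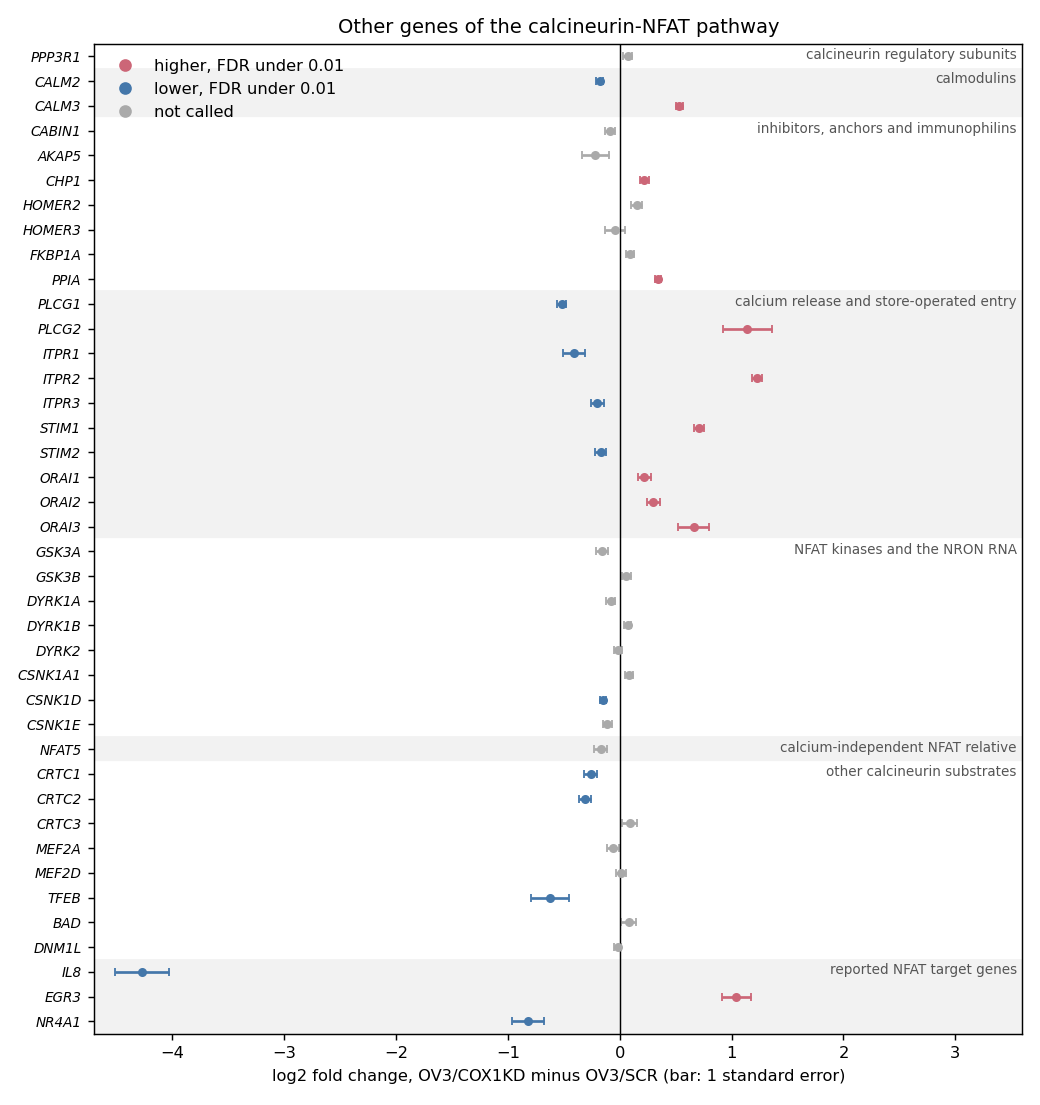
Log2 fold change of OV3/COX1KD over OV3/SCR for the 40 tested genes of the pathway list, grouped by role, with bars of 1 standard error and red or blue points for genes called higher or lower. The calcium entry genes are called on both sides of 0, the kinases lie close to 0, and IL8 at -4.27 is the point farthest to the left.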

How the data were processed

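Gene expression was measured by RNA-seq in 3 OV3/SCR and 3 OV3/COX1KD libraries. The authors' pipeline used TopHat2 for alignment to hg19 and HTSeq for counting, and the deposited values are raw, unnormalized gene counts. The submitters' processing notes name TopHat2 2.0. The gene annotation and strand setting are not given in the sources used here.

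The comparison was run with edgeR 4.0.16 under R 4.3.3 (TMM, filterByExpr, glmQLFit, glmQLFTest, condition as the only factor), with Benjamini-Hochberg adjustment over all 17309 genes kept. The p-values set the difference between 1 clone of each condition against the spread between cultures of the same clone. They do not cover the spread between clones. The standard error was the size of the log2 fold change over the square root of F. No 2 libraries were copies, since pairs within a condition had a chi-square per degree of freedom of 1.82 to 6.4. Floors of 3 counts cover counting error only.

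The members, and the FDR threshold of 0.01 taken from the study, were chosen with earlier results of these data known. The study also set a minimum fold change for its significantly changed genes, which was not applied here. The pathway list was written from general knowledge with those results at hand. The pathway genes named were PPP3R1, PPP3R2, CALM2, CALM3 and NFAT5, and in each other role at most the 4 largest changes that were called and reached 0.5 in absolute log2 fold change. Other genes of a role named beside a count (PLCG1, ITPR1, ITPR3, STIM2, ORAI1, ORAI2, CHP1, PPIA, CSNK1D, CRTC1 and CRTC2, the examples of untested targets, and the genes overlapping NFATC3 and RCAN1) were chosen after their values were seen.

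Alternatives were DESeq2 1.42.0, scaling by RLE or by total counts, no low-count filter, a minimum of 10 counts in each library, a block for the replicate number, and each library left out. Positions and lengths came from GENCODE 44 on GRCh37, which had 33556 of 34811 genes, and promoters from RefSeq. The scripts were tested on simulated data. Some items of the gene lists are not reported here and entered no count.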

Additional observations from a re-analysis of the deposited data

How the results depend on the processing

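None of the 10 genes changed sign in the 12 alternatives. RCAN2 ranged from -3.66 to -3.43, RCAN1 from -0.92 to -0.81, PPP3CC from -1.01 to -0.77, RCAN3 from 0.3 to 0.47, PPP3CB from 0.35 to 0.45 and NFATC3 from 0.4 to 0.56, and these 6 were called in every alternative. PPP3CA ranged from 0.1 to 0.24 and was called in 3 of 12. NFATC1 was called without OV3/COX1KD replicate 2 only, and NFATC4 without a filter and without OV3/COX1KD replicate 3. NFATC2 (0 to 0.2) was called in none. The number of members called was 6 to 8.

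With total count scaling, which moved the median of all genes by -0.078, 17 pathway genes were called lower in place of 11, and PPP3R1 changed sign to -0.01. The TMM factors that this scaling leaves out were 1.02 to 1.04 in OV3/SCR and 0.97 to 0.977 in OV3/COX1KD. With DESeq2, 10 pathway genes were called higher and 9 lower. Leaving out 1 library gave 7 (without OV3/SCR replicate 3) to 12 pathway genes called lower. Why the number changed when a library was left out was not tested.

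The replicate numbers gave no clear pairing of the libraries. Same-numbered libraries deviated from their condition means with correlations of -0.00817, 0.0458 and 0.0267 across genes, and differently numbered ones with -0.049 to 0.0236. OV3/SCR replicates 2 and 3 deviated most like the OV3/COX1KD library of the same number. OV3/SCR replicate 1 deviated most like OV3/COX1KD replicate 3 (0.0236). With the replicate block, 6 members were called (PPP3CA was lost), 23 pathway genes and 8233 of all genes.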

Other observations

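The chromosomal neighbours of a gene were taken as tested genes within 1 Mb whose log2 CPM averaged 1 or more. Those of the 3 genes that were lower in OV3/COX1KD come first. Of all tested genes, at any level, 25.8% were called higher and 22.1% lower. Around RCAN2, 9 such genes had a median log2 fold change of 0.3, with 5 called higher and 1 lower, and the lowest, SLC25A27, a mitochondrial carrier gene, was at -0.29. The highest was TNFRSF21, a death receptor gene, at 1.46. Around RCAN1, 9 genes had a median of -0.21, with 2 called higher and 5 lower, and the lowest was RUNX1, a transcription factor gene, at -0.51. Around PPP3CC, 24 genes had a median of -0.16, with 4 called higher and 11 lower, from HR at -1.2 to EGR3 at 1.04. More neighbours were thus called lower than higher around RCAN1 and PPP3CC, and more higher than lower around RCAN2. An excess of lower neighbours was also seen around genes that were not lower: PPP3CB (12 lower, 5 higher), NFATC3 (16 and 6) and NFATC4 (11 and 6). Around RCAN3 (8 lower, 9 higher), NFATC1 (1 and 4) and NFATC2 (1 and 3) more were called higher, and around PPP3CA 1 each way. The part of the neighbourhood in the members' values was not tested. These counts were made after the values of the members were seen.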
